A study of Mus musculus with 7 samples.

Results

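Calcium buffer and synapse genes of cochlear hair cells were followed in sorted supporting cells exposed to inhibitors of histone-modifying enzymes. The set holds 10 of the 48709 genes of each table, chosen by name for their roles with earlier results of these data known. Of these, 4 encode calcium buffers (Calb2, Calb1, Pvalb and Ocm) and 6 serve the synapse and vesicle fusion (Otof, Slc17a8, Ctbp2, Snap91, Cacna1d and Cplx1). All 10 had enough counts to be tested. Cochleae of mice at postnatal day 1 were kept in culture for 48 h with trichostatin A (TSA) at 200 nM, with GSK-343 at 10 µM, or with DMSO, the solvent. TSA inhibits histone deacetylases, and GSK-343 inhibits EZH2, the histone methyltransferase of Polycomb repressive complex 2. All cultures contained EGF and FGF, and GFP-positive cells, which the labels call supporting cells, were sorted from the dissociated organs. The libraries number 2 for TSA, 3 for GSK-343 and 2 for DMSO. The labels name neither the mouse strain nor the promoter that drives GFP. They also leave unsaid whether replicates came from separate cultures or animals, and p reflects no more than the scatter among these 7 libraries, which may be technical.

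Hair cells turn sound into a graded calcium entry at ribbon synapses, where an electron-dense ribbon holds synaptic vesicles close to clustered L-type calcium channels. Otoferlin triggers the fusion of those vesicles, and the released glutamate excites the afferent fibres of the spiral ganglion. Mobile calcium-binding proteins such as calretinin, calbindin, parvalbumin and oncomodulin limit how far and how long the calcium spreads. Supporting cells surround the hair cells and in the neonatal cochlea can, to a limited extent, turn into hair cells. Several of these genes, among them Calb2, Pvalb, Snap91 and Cplx1, are also used by neurons.

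Total expected counts were 2724381 and 2963228 for TSA, 3398893 to 4248336 for GSK-343, and 5974230 and 5124247 for DMSO. Supporting cell markers were present in every library. Sox2 measured 100 and 92.1 CPM in TSA libraries, 146, 165 and 149 CPM in GSK-343 libraries, and 188 and 181 CPM in DMSO libraries. CPM are counts scaled to library size with TMM normalisation. The DMSO libraries also differed from all treated libraries in several measures, and the step at which this arose was not tested. The median gap between a gene's length and its effective length was 210.24 and 208.21 bases for TSA and 209.96 to 212.69 bases for GSK-343, against 49 bases for both DMSO libraries. Nuclear protein-coding genes held 78.2% to 93.4% of the counts in the treated libraries and 62.5% and 63.4% in the DMSO libraries. In every comparison with DMSO, this difference and the treatment cannot be told apart. The TSA and GSK-343 libraries overlapped in this gap.

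Relative to DMSO, most of the 10 genes were higher with each inhibitor. With TSA, 7 rose and none fell: Calb2, Calb1, Pvalb, Ctbp2, Snap91, Cacna1d and Cplx1. With GSK-343, 6 rose and none fell: Calb2, Calb1, Pvalb, Ctbp2, Snap91 and Cplx1. Over all 14907 tested genes, 13.1% rose with TSA and 18.1% rose with GSK-343 at the same threshold. The median log2 fold change of the 10 genes was 2.54 for TSA and 2.56 for GSK-343 relative to DMSO, beside medians of -0.05 and -0.04 for all tested genes. Cplx1 lay above these medians both as fitted and at its lower bound, so setting it at that bound could not move them. A gene was taken to have risen or fallen when edgeR's quasi-likelihood test gave a p below 0.05 after Benjamini-Hochberg adjustment, and each fold change is a log2 value ± SE. Both comparisons use the same DMSO libraries. The count filter used all libraries, so genes with few DMSO counts could pass it through the treated libraries alone. Among the genes called with both inhibitors, expected counts in DMSO were 10 and 4 for Calb2, 6 and 0 for Pvalb, and 0 and 0 for Cplx1.

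CPM values of the TSA libraries lay above both DMSO values for 6 of the 10 genes, as they did for 33% of all tested genes. CPM values of the GSK-343 libraries lay above both DMSO values for 7 of the 10, as they did for 28.6% of all tested genes. Between TSA and GSK-343, none of the 10 genes passed the threshold in edgeR's quasi-likelihood test, beside 10.7% of all tested genes in either direction. At an unadjusted p under 0.05 there were 5 (Calb2, Calb1, Ocm, Slc17a8 and Cacna1d), beside 27.9% of all tested genes, and the Wald test of DESeq2 and limma on log2 TPM each called 0. The TSA values of 2 genes, Calb1 and Slc17a8, lay above all GSK-343 values, as did those of 23.5% of all tested genes. For Slc17a8, TSA replicate 2 and GSK-343 replicate 1 each held 9 expected counts, so their 2.64 and 2.55 CPM differ by scaling only. In bulk RNA, fewer cells of a type and less RNA per cell cannot be told apart, and this holds for every level below.

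**Figure D1:**
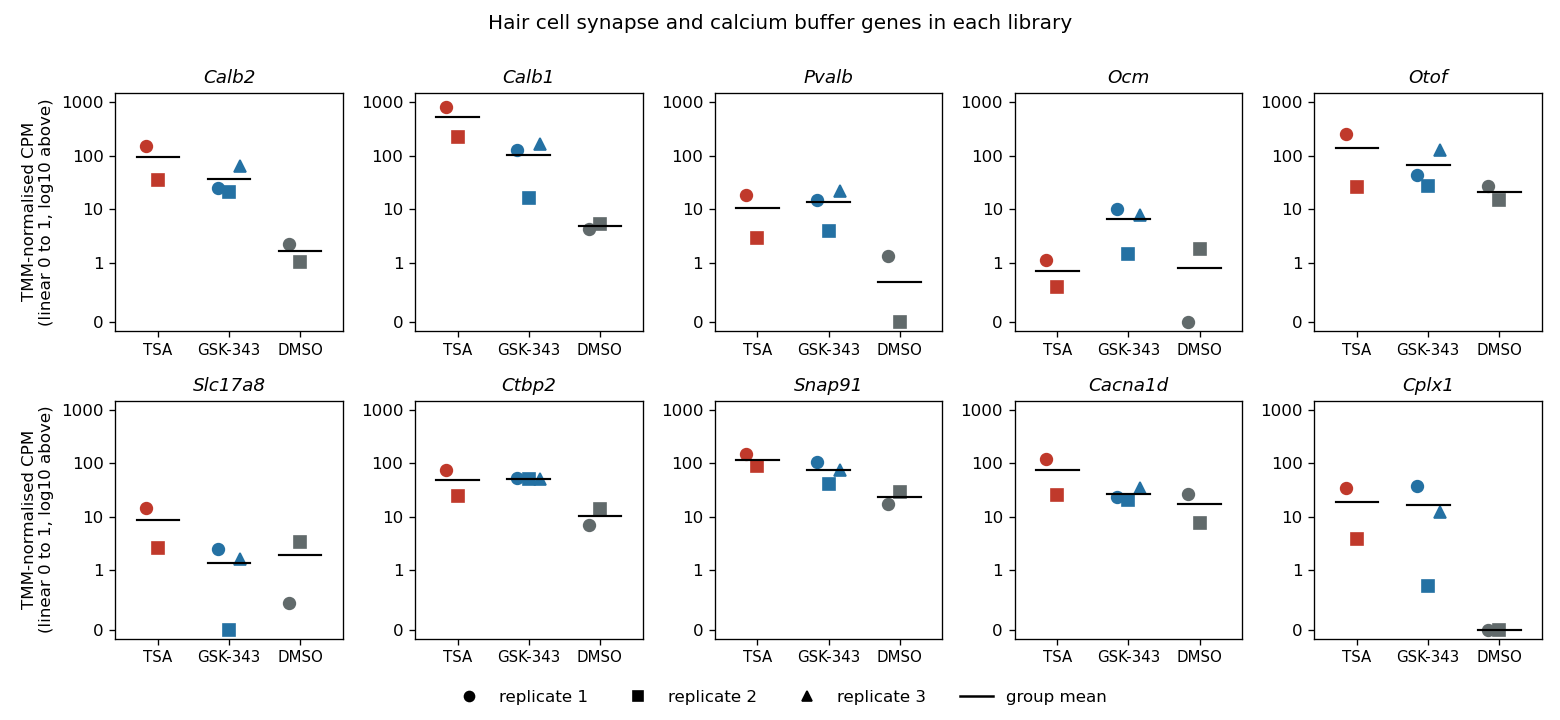
TMM-normalised CPM of the 10 genes in each library (linear axis from 0 to 1, log10 above), with groups from left to right TSA (n = 2), GSK-343 (n = 3) and DMSO (n = 2), 1 symbol per replicate and a bar at the group mean. Calb2 and Calb1 lie above DMSO in every treated library, Cplx1 is at 0 in both DMSO libraries, and TSA replicate 1 lies above TSA replicate 2 in each of the 10 panels.

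Calb1 encodes calbindin, a high-affinity calcium buffer (chromosome 4, 15881264 to 15908064, GRCm38, plus strand). It had 811 and 226 CPM with TSA, 130, 16.1 and 162 CPM under GSK-343, and 4.27 and 5.21 CPM in DMSO. The 3 groups did not overlap at all, and TSA stood highest. Calb1 rose by 6.77 ± 1.14 with TSA (adjusted p = 0.00281) and by 4.43 ± 1.02 with GSK-343 (adjusted p = 0.00748), each relative to DMSO. The TSA call was lost without DMSO replicate 1 or 2 (adjusted p = 0.0646 and 0.0535), and the GSK-343 call without GSK-343 replicate 1 (adjusted p = 0.0795) or either DMSO library (adjusted p = 0.102 and 0.0865). The difference between TSA and GSK-343 was 2.33 ± 0.78 (adjusted p = 0.0869). That difference passed the threshold in 3 of 12 alternative settings, with adjusted p of 0.0434 under total count scaling, 0.00243 with a replicate block and 0.0312 with nuclear protein-coding genes only, and over the 12 settings adjusted p reached 0.342. With a library left out it passed only without GSK-343 replicate 2 (1.83, adjusted p = 0.0358), and without TSA replicate 1 it was 1.13 (adjusted p = 0.663).

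Calb2 encodes calretinin, a related buffer that marks young hair cells and many neurons (chromosome 8, 110137502 to 110168210, GRCm38, minus strand). Its levels were 152 and 35.8 CPM with TSA, 24.9, 20.9 and 62.9 CPM under GSK-343, and 2.25 and 1.04 CPM in DMSO. Every treated library lay above both DMSO libraries, while TSA and GSK-343 overlapped. Calb2 rose by 5.78 ± 0.85 with TSA (adjusted p = 4.65e-04) and by 4.42 ± 0.80 with GSK-343 (adjusted p = 9.56e-04). Both calls held in all 7 fits that left out a library. Between the inhibitors the log2 difference was 1.37 ± 0.58 (adjusted p = 0.145), and it became -0.02 without TSA replicate 1.

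Pvalb encodes parvalbumin, a slow calcium buffer (chromosome 15, 78191114 to 78206400, GRCm38, minus strand). It was rarer, with 18.2 and 2.93 CPM for TSA, 15.0, 3.89 and 22.0 CPM for GSK-343, and 1.35 and 0 CPM for DMSO. The treated libraries held 10 to 95 expected counts and the DMSO libraries 6 and 0. Pvalb rose by 3.86 ± 1.25 with TSA (adjusted p = 0.0318) and by 4.22 ± 1.22 with GSK-343 (adjusted p = 0.0134). Without TSA replicate 1 the TSA value was 2.07 (adjusted p = 0.324), and with libraries thinned to the smallest it was 2.86 (adjusted p = 0.0857). Without DMSO replicate 2 adjusted p was 0.131 for TSA and 0.0728 for GSK-343. The inhibitors differed by -0.36 ± 0.95 (adjusted p = 0.85).

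Ocm encodes oncomodulin, the parvalbumin relative best known from outer hair cells (chromosome 5, 144019804 to 144026670, GRCm38, minus strand). It was the only buffer gene that passed the threshold in neither comparison with DMSO. Levels were 1.12 and 0.587 CPM with TSA, 10.2, 1.46 and 7.63 CPM under GSK-343, and 0 and 1.82 CPM in DMSO. These rest on 4 and 2 expected counts with TSA, 36, 6 and 33 under GSK-343, and 0 and 7 in DMSO, so both TSA libraries are near the floor of 3 counts. Both TSA values lay below all GSK-343 values, with a log2 difference of -2.86 ± 1.34 (adjusted p = 0.178). GSK-343 differed from DMSO by 2.81 ± 1.32 (adjusted p = 0.103), which passed without DMSO replicate 2 (adjusted p = 0.0276), when the DMSO library left has no count, and with thinned libraries (adjusted p = 0.0412). TSA differed from DMSO by -0.05 ± 1.49 (adjusted p = 0.984), and this sign turned under total count scaling (0.64).

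Otof encodes otoferlin, the calcium sensor for vesicle fusion in hair cells (chromosome 5, 30367062 to 30461932, GRCm38, minus strand). It had 253 and 26.4 CPM with TSA, 43.9, 27.5 and 128 CPM under GSK-343, and 27.1 and 14.6 CPM in DMSO. TSA replicate 2 was within the DMSO range, and the lowest GSK-343 library was just above it. Otof was thus clearly detected in DMSO, with 120.85 and 56 expected counts, and passed the threshold with neither inhibitor. The difference from DMSO was 2.74 ± 1.01 for TSA (adjusted p = 0.0696) and 1.67 ± 0.93 for GSK-343 (adjusted p = 0.183). The TSA value passed in 5 of 12 alternative settings, among them the fit without robust moderation of the spread (adjusted p = 0.0383), with adjusted p over the 12 reaching 0.193. Without TSA replicate 1 it was 0.38 (adjusted p = 0.758), and without TSA replicate 2 it was 3.63 (adjusted p = 0.0118). It also passed without GSK-343 replicate 2 or 3 (adjusted p = 0.0387 and 0.0375), and the GSK-343 difference passed without TSA replicate 1 (adjusted p = 0.0369).

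Cacna1d encodes the pore-forming subunit of the L-type calcium channel that opens at the ribbon (chromosome 14, 30039939 to 30491455, GRCm38, minus strand). Its levels were 123 and 25.4 CPM with TSA, 23.9, 20.5 and 34.8 CPM under GSK-343, and 27.1 and 7.80 CPM in DMSO. Only TSA replicate 1 stood apart from the other libraries, and both inhibitors overlapped DMSO. Cacna1d rose by 2.08 ± 0.70 with TSA in the fit of all 7 libraries (adjusted p = 0.0389). Without TSA replicate 1 the value was 0.58 (adjusted p = 0.605), without DMSO replicate 2 it was 1.46 (adjusted p = 0.197), and without GSK-343 replicate 1 adjusted p was 0.0509. It also missed the threshold with thinned libraries (adjusted p = 0.0771) and in limma on log2 TPM (adjusted p = 0.0631). GSK-343 differed from DMSO by 0.58 ± 0.63 (adjusted p = 0.491). The counts of Cacna1d were not whole numbers in 7 of 7 libraries, so some of its reads were shared with other genes. Its span also overlaps Chdh and Dcp1a on the other strand, and Dcp1a had 95 to 439 expected counts per library.

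Slc17a8 encodes the vesicular transporter that loads glutamate in inner hair cells (chromosome 10, 89574020 to 89621253, GRCm38, minus strand). It was the rarest of the 10 genes apart from Ocm by total count, at 14.8 and 2.64 CPM with TSA, 2.55, 0 and 1.62 CPM under GSK-343, and 0.449 and 3.39 CPM in DMSO. One library, TSA replicate 1, held 53 of its 93 expected counts. Differences were 2.64 ± 1.22 between TSA and GSK-343 (adjusted p = 0.169), 2.19 ± 1.36 between TSA and DMSO (adjusted p = 0.244) and -0.46 ± 1.27 between GSK-343 and DMSO (adjusted p = 0.803).

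Ctbp2 yields both the transcriptional co-repressor CtBP2 and, from an internal start, RIBEYE, the main protein of the ribbon (chromosome 7, 132987563 to 133124354, GRCm38, minus strand). The gene had 74.2 and 24.3 CPM with TSA, 53.5, 51.6 and 51.8 CPM under GSK-343, and 6.94 and 14.1 CPM in DMSO. All treated libraries lay above DMSO, and the GSK-343 libraries were closer together than for any of the other 9 genes. Ctbp2 rose by 2.23 ± 0.55 with TSA (adjusted p = 0.00817) and by 2.32 ± 0.52 with GSK-343 (adjusted p = 0.00316). The TSA call was lost without DMSO replicate 1 (adjusted p = 0.0746) or TSA replicate 1 (adjusted p = 0.161), while the GSK-343 call held in all 7 fits that left out a library. Between the inhibitors the difference was -0.09 ± 0.47 (adjusted p = 0.942), and its sign turned under total count scaling (0.20).

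The gene-level counts do not separate RIBEYE from CtBP2. The annotation lists 20 Ctbp2 transcripts, and the longest protein-coding one has 3604 bases and 988 codons and starts at position 133015248. The abundance-weighted mean length in the tables was 2125 and 2087 bases with TSA, 1811 to 2036 bases under GSK-343, and 1919 and 1877 bases in DMSO, well short of that transcript in every library. The span of Ctbp2 overlaps Fgfr2 and B930086L07Rik on the same strand. B930086L07Rik had 15 and 34 expected counts in DMSO and at most 1 in each treated library, and its part in the Ctbp2 levels was not tested.

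Snap91 encodes a clathrin assembly protein that retrieves synaptic vesicle membrane (chromosome 9, 86765923 to 86880654, GRCm38, minus strand). It had 148 and 88.6 CPM with TSA, 106, 41.1 and 75.8 CPM under GSK-343, and 17.3 and 29.6 CPM in DMSO. Every treated library exceeded both DMSO libraries, and the TSA replicates were closer to each other than for any other of the 10 genes. Snap91 rose by 2.34 ± 0.50 with TSA (adjusted p = 0.00361), a call that held in all 7 fits that left out a library. It rose by 1.66 ± 0.46 with GSK-343 (adjusted p = 0.0103), a call lost without DMSO replicate 1 (adjusted p = 0.0949). The inhibitors differed by 0.68 ± 0.42 (adjusted p = 0.318).

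Cplx1 encodes a complexin, a small protein that binds SNARE complexes and controls fusion (chromosome 5, 108518554 to 108550024, GRCm38, minus strand). It had 34.4 and 3.81 CPM with TSA, 37.1, 0.730 and 12.3 CPM under GSK-343, and 0 CPM in both DMSO libraries. GSK-343 replicate 2 held 3 expected counts, the number taken as the floor, so this library did not stand clear of DMSO. Against a floor of 3 counts per DMSO library, the mean was at least 26.3-fold higher with TSA and at least 22.9-fold higher with GSK-343, bounds that cover counting error only. Adjusted p was 0.0257 for TSA and 0.0194 for GSK-343. Leaving out any 1 of the TSA or DMSO libraries ended the TSA call (adjusted p = 0.058 to 0.171), leaving out either DMSO library ended the GSK-343 call (adjusted p = 0.149 and 0.139), and limma on log2(TPM + 0.5) made neither call (adjusted p = 0.0782 and 0.107). The inhibitors differed by 0.20 ± 1.23 (adjusted p = 0.95).

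Promoter windows of 3 synapse genes that rose are shown, to set the start regions of genes with unlike DMSO levels side by side. Cplx1 was not seen in DMSO, Snap91 was readily seen there, and the Ctbp2 window holds the start of the long transcript with 988 codons. Each window runs from 250 bases before to 50 bases after a RefSeq gene start (GRCm38.p6) and is written on the minus strand, at chr5:108549978-108550277 for Cplx1, chr9:86880659-86880958 for Snap91 and chr7:133015198-133015497 for Ctbp2. Capitals mark, on either strand, the GC box GGGCGG, the E-box CAGCTG and the TATA motif TATAAA.
Cplx1: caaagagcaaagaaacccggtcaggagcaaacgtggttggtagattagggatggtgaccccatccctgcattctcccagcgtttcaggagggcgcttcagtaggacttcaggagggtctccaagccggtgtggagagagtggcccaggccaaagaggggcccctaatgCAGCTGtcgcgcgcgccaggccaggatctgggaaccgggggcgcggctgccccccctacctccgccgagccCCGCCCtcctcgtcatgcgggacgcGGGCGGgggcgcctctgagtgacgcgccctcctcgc
Snap91: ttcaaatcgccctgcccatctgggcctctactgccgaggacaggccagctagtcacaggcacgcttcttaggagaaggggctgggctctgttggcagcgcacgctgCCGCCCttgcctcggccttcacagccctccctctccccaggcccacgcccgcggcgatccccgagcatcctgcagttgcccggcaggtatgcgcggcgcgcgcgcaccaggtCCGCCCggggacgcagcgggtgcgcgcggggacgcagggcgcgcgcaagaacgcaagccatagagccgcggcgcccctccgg
Ctbp2: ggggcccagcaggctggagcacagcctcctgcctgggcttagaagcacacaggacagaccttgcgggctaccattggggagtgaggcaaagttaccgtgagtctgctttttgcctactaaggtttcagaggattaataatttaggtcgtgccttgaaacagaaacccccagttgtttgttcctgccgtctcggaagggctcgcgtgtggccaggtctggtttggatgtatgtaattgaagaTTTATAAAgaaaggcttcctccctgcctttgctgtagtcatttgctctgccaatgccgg

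The windows of Cplx1 and Snap91 were rich in G and C, at 67% and 72%, with observed over expected CpG of 0.713 and 0.907. The Ctbp2 window had 52% and 0.399, close to the medians of 52.7% and 0.384 over all 32851 RefSeq windows. GGGCGG occurred 2 times each in the Cplx1 and Snap91 windows and in 35.7% of all windows. CAGCTG, which reads the same on both strands, occurred 1 time in Cplx1 and in 16.3% of all windows. TATAAA occurred 2 times in the Ctbp2 window, as overlapping matches on opposite strands, and in 13.6% of all windows. The looser motif CANNTG, which includes CAGCTG, was in 9 of 11 windows of the 10 genes and in 72.3% of all windows. Over the 11 windows, GGGCGG was in 3, CAGCTG in 2 and TATAAA in 2. A second Ctbp2 window, at another start, had 43.7% G and C and a CpG ratio of 0.210, with none of these 3 motifs. RefSeq windows were matched for 7 of the 10 genes, and Calb1, Calb2 and Otof had none. The window matched to Ocm, at chr5:144050560-144050859, lies outside the gene span given above. It is counted among the 11 windows and holds CANNTG.

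**Figure D2:**
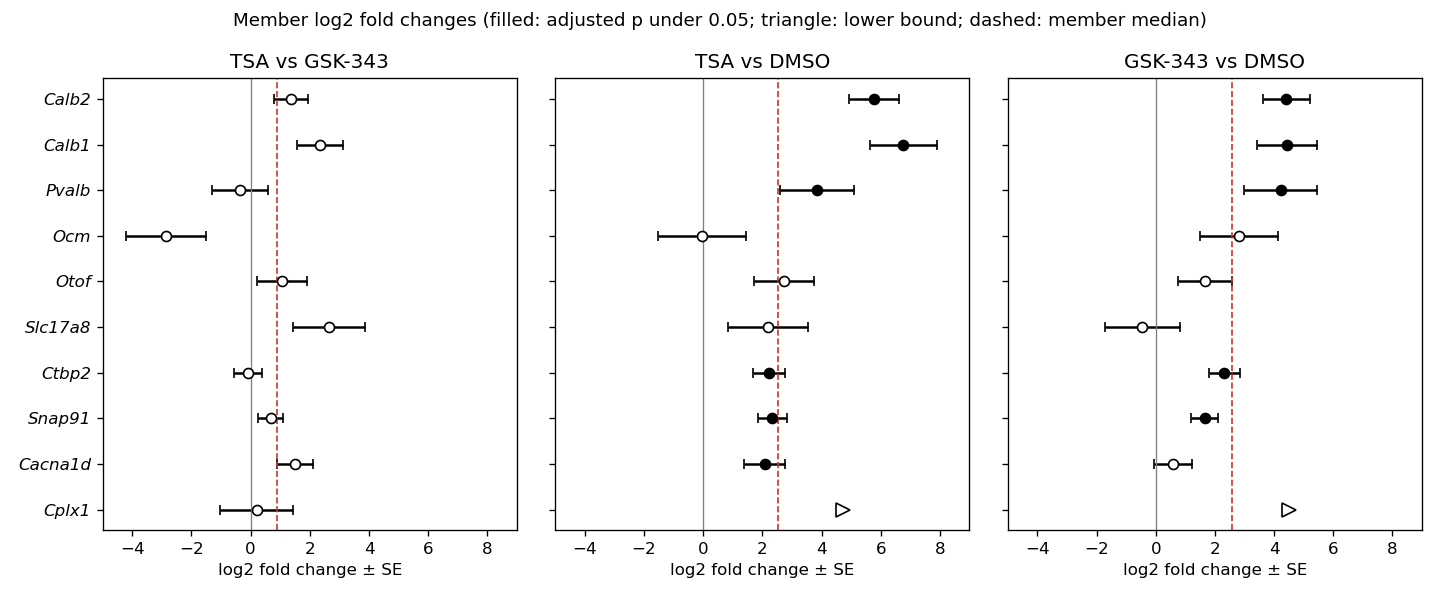
Log2 fold change ± SE of each gene between TSA and GSK-343, TSA and DMSO, and GSK-343 and DMSO, from edgeR on all 7 libraries. Filled circles have an adjusted p below 0.05, triangles are lower bounds for Cplx1 against the DMSO floor, and dashed lines mark the medians of the 10 genes, at 0.87, 2.54 and 2.56.

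Replicates of each inhibitor differed widely, and the genes moved together between them. All 10 genes were higher in TSA replicate 1 than in TSA replicate 2, by 1.68-fold for Snap91 up to 9.59-fold for Otof, with a median of 4.54-fold. Over all tested genes with counts in both libraries, that median was 1.00-fold. All 10 were lowest in GSK-343 replicate 2, and 5 of them (Calb2, Calb1, Pvalb, Otof and Cacna1d) were highest in GSK-343 replicate 3. Among the 9 genes seen in all GSK-343 libraries, the widest spread was that of Cplx1, 50.8-fold, and the narrowest that of Ctbp2, 1.04-fold.

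Hair cell markers followed the same order of libraries. The summed CPM of 20 hair cell markers, led by Myo6 in each group, was 2162 and 770 with TSA, 982, 543 and 1281 under GSK-343, and 517 and 478 in DMSO. Pou4f3, a hair cell transcription factor, had 445 and 73.3 CPM with TSA, 212, 73.5 and 299 CPM under GSK-343, and 2.85 and 12.5 CPM in DMSO. The motor protein gene Myo7a had 147 and 21.4 CPM with TSA, 40.8, 10.2 and 50.2 CPM under GSK-343, and 17.3 and 3.91 CPM in DMSO. Of the 18 tested hair cell markers, 7 rose and 0 fell with TSA, and 6 rose and 1 fell with GSK-343, relative to DMSO. Over all tested genes, 13.1% rose and 16.1% fell with TSA, and 18.1% rose and 21.5% fell with GSK-343. The part of hair cell number in the levels of the 10 genes was not tested.

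Relative to the summed hair cell markers, the 10 genes made up a larger amount in the treated libraries than in DMSO, a description with no test. Myo6 led that sum, with a mean of 600 CPM with TSA, 325 CPM under GSK-343 and 271 CPM in DMSO. Relative to Pou4f3 alone, at 2.85 and 12.5 CPM in DMSO, the 10 genes were not higher in the treated libraries. Relative to Myo7a alone, treated and DMSO libraries overlapped. Their summed CPM was 1630 and 437 with TSA, 447, 184 and 559 under GSK-343, and 86.8 and 77.6 in DMSO. Divided by the hair cell marker sum of the same library, this came to 0.754 and 0.567 with TSA, 0.455, 0.338 and 0.436 under GSK-343, and 0.168 and 0.162 in DMSO. The 3 groups did not overlap in this ratio. Calb1 alone held 811 and 226 CPM of the TSA sums. Without Calb1, TSA and GSK-343 overlapped in this ratio and in that of the calcium buffers. The calcium buffers differed most, with a ratio of 0.454 and 0.345 for TSA, 0.184, 0.0779 and 0.199 for GSK-343, and 0.0152 and 0.0169 for DMSO. For the 6 synapse genes the ratio was 0.300 and 0.222 with TSA, 0.272, 0.260 and 0.238 under GSK-343, and 0.153 and 0.145 in DMSO, so TSA and GSK-343 overlapped there.

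**Figure D3:**
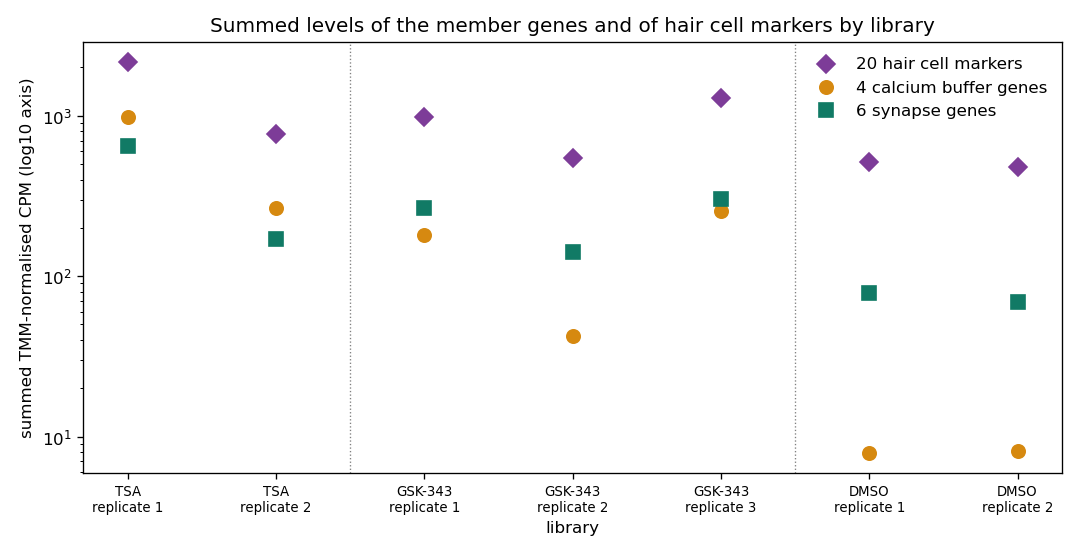
Summed TMM-normalised CPM (log10 axis) of the 4 calcium buffer genes, the 6 synapse genes and 20 hair cell markers in each library, with TSA at the left, GSK-343 in the middle and DMSO at the right. The buffers go from 982 CPM in TSA replicate 1 to 7.86 CPM in DMSO replicate 1, a wider range than that of the synapse genes or the markers.

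Some markers of neurons, which also use several of the 10 genes, moved with TSA. The summed CPM of 16 neuron markers was 644 and 593 with TSA, 275, 132 and 175 under GSK-343, and 277 and 273 in DMSO. Unlike the 10 genes, this sum hardly differed between the TSA replicates. Map2 led it with TSA, and Isl1, also a gene of the sensory epithelium, led it with GSK-343 and in DMSO. Of 13 tested neuron markers, 6 rose and 0 fell between TSA and GSK-343, 4 rose and 0 fell between TSA and DMSO, and 1 rose and 4 fell between GSK-343 and DMSO. The shares of all tested genes that rose and fell were 5.04% and 5.68%, 13.1% and 16.1%, and 18.1% and 21.5%, in the same order. The defining markers were Nefl, Tubb3 and Rbfox3. Nefl had 73.4 and 26.7 CPM with TSA, 10.2, 3.89 and 14.6 CPM under GSK-343, and 0.898 and 0 CPM in DMSO. Tubb3 did not rise, at 1.68 and 3.81 CPM with TSA, 1.13, 3.41 and 4.16 CPM under GSK-343, and 7.19 and 0.521 CPM in DMSO. Rbfox3 was at or below 4.20 CPM in every library and at 0 in TSA replicate 2. The neuron markers' part in the TSA levels was not tested. Supporting cell markers summed to 7184 and 5325 CPM with TSA, 15150 to 18020 CPM under GSK-343, and 15350 and 12390 CPM in DMSO. S100a1 led that sum with TSA and under GSK-343 (means of 1249 and 6141 CPM), and had 645 and 456 CPM in DMSO. Of 18 tested supporting cell markers, 1 rose and 10 fell with TSA relative to DMSO. With GSK-343, 3 rose and 5 fell relative to DMSO, and between TSA and GSK-343, 0 rose and 7 fell. These counts stand beside the same shares of all tested genes. Glia markers summed to 229 and 191 CPM with TSA, 770, 502 and 706 CPM under GSK-343, and 327 and 378 CPM in DMSO, and mesenchyme markers to 190 and 85.1 CPM with TSA, 210, 85.4 and 133 CPM under GSK-343, and 110 and 132 CPM in DMSO. Mesenchyme markers were thus also higher in TSA replicate 1 than in replicate 2 and lowest under GSK-343 in replicate 2, and their part in the levels of the 10 genes was not tested. Immune and endothelial markers reached at most 20.2 and 19.0 CPM in any library.

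Levels compared per transcript length, in TPM, put different genes on top in each group. With TSA, Calb1 and Calb2 led both libraries, at 528 and 122 TPM for Calb1 and 310 and 61.1 TPM for Calb2. With GSK-343 the leader differed in each library: Snap91 (73.5 TPM), Ctbp2 (57.0 TPM) and Calb2 (84.6 TPM). In DMSO, Snap91 (10.9 TPM) and Ctbp2 (7.76 TPM) led. The 4 buffers held 69.8% and 66.0% of the summed TPM of the 10 genes with TSA, 50.6%, 36.2% and 62.4% under GSK-343, and 19.8% and 29.2% in DMSO. The lowest place fell to Slc17a8 in all 5 treated libraries. In the order of group means, neighbouring genes overlapped in TPM in each group, except for Slc17a8, which lay below Ocm with TSA and below Cacna1d with GSK-343, and above Cplx1 in DMSO.

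**Figure D4:**
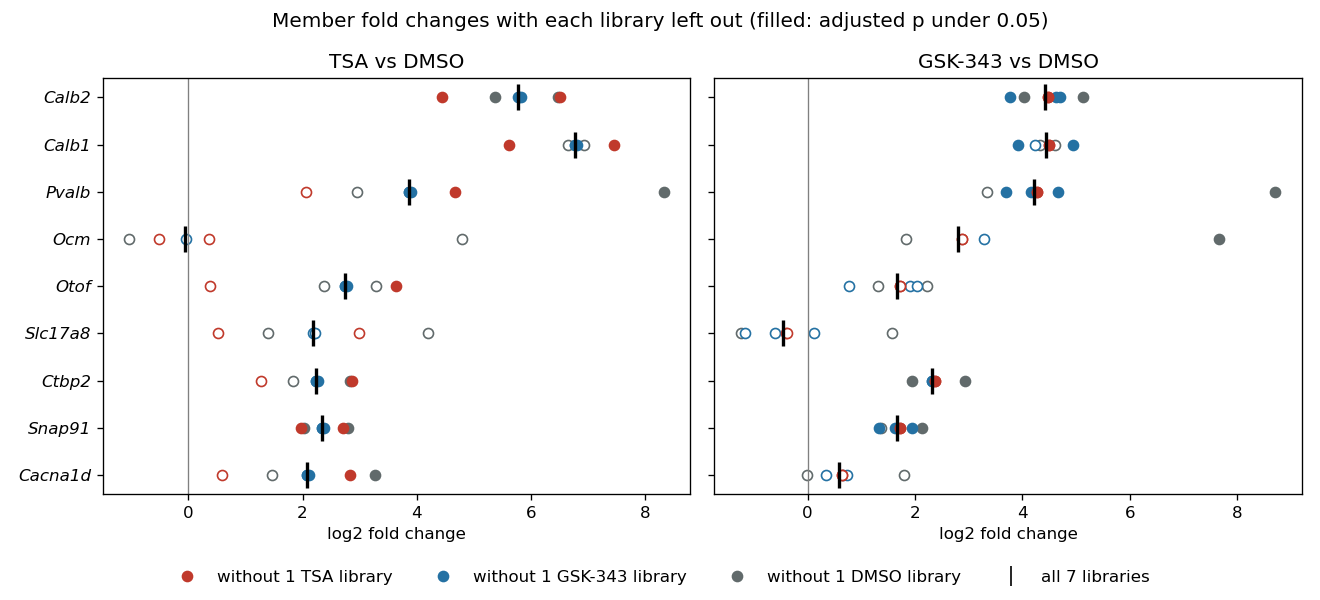
Log2 fold change relative to DMSO of 9 genes (Cplx1, with no DMSO count, is left out), for TSA at the left and GSK-343 at the right, with all 7 libraries (bar) and with each library left out (circles, coloured by the group that lost a library, filled where adjusted p is below 0.05). Calb2 stays filled throughout in both panels, Cacna1d with TSA ranges from 0.58 to 3.27, and the values near 8 for Pvalb and Ocm are fitted against a DMSO library with no count.

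Other genes of calcium handling and release were read from 6 lists of 113 genes, of which 93 were tested. Relative to DMSO, 20 rose and 7 fell with TSA (21.5% and 7.53%), and 17 rose and 15 fell with GSK-343 (18.3% and 16.1%), beside 13.1% rising and 16.1% falling with TSA, and 18.1% rising and 21.5% falling with GSK-343, over all tested genes. Total count scaling gave 39 that rose and 2 that fell with TSA, and 28 and 9 with GSK-343, while without 1 of the TSA or DMSO libraries 10 to 15 rose with TSA. In limma on log2 TPM 38 to 40 rose with TSA, and without either DMSO library 12 rose with GSK-343. Between TSA and GSK-343, 10 rose and 3 fell (10.8% and 3.23%), beside 5.04% and 5.68% of all tested genes, and 4 to 6 rose without 1 of the TSA libraries and 1 to 5 in limma on log2 TPM, while 16 rose without GSK-343 replicate 1. The median log2 fold changes of the 93 were 0.77 between TSA and GSK-343, 0.85 between TSA and DMSO, and -0.05 between GSK-343 and DMSO. The counts of each list below are to be read beside these same shares of all tested genes.

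Among 14 tested scaffold genes of the ribbon and active zone, 2 rose and 2 fell with TSA, and 2 rose and 5 fell with GSK-343, relative to DMSO. Under total count scaling 5 rose and 0 fell with TSA, and 2 rose and 3 fell with GSK-343. Ctbp1, the close relative of Ctbp2, had 203 and 137 CPM with TSA, 715, 262 and 351 CPM under GSK-343, and 29.9 and 24.2 CPM in DMSO. It rose by 2.65 ± 0.46 with TSA (adjusted p = 0.00105) and by 4.03 ± 0.47 with GSK-343 (adjusted p = 2.89e-05), and was lower with TSA than with GSK-343 (-1.38 ± 0.41, adjusted p = 0.0435), a call lost in 6 of 7 fits that left out a library and in 7 of 12 other settings (adjusted p up to 0.415). The active zone scaffold gene Pclo had 60.5 and 77.9 CPM with TSA, 9.16, 25.3 and 29.8 CPM under GSK-343, and 123 and 131 CPM in DMSO, a log2 fold change with GSK-343 of -2.57 ± 0.43 (adjusted p = 4.66e-04), which in limma on log2(TPM + 0.5) was -1.03 (adjusted p = 0.153). The list holds Cast, the symbol of calpastatin and not of an active zone protein, and it is 1 of the 5 that fell with GSK-343.

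Among 37 genes of vesicle fusion and recycling, 5 rose and 0 fell between TSA and GSK-343, the comparison in which none of the 10 hair cell genes passed. Snap25, a neuronal SNARE, had 73.9 and 64.5 CPM with TSA, 12.8, 4.14 and 11.1 CPM under GSK-343, and 1.57 and 3.13 CPM in DMSO. The 2 TSA libraries nearly coincided and stood clear of the rest, with a log2 difference from GSK-343 of 2.89 ± 0.52 (adjusted p = 0.00520) and from DMSO of 4.88 ± 0.68 (adjusted p = 2.12e-04). The vesicle glycoprotein gene Sv2a rose by 2.80 ± 0.50 over GSK-343 (adjusted p = 0.00531), a call lost without TSA replicate 1 (adjusted p = 0.0765). The dynamin gene Dnm3, with 60.5 and 58.4 CPM for TSA, 2.83, 5.11 and 4.39 CPM for GSK-343, and 16.4 and 15.1 CPM for DMSO, rose over GSK-343 by 3.84 ± 0.48 (adjusted p = 0.00136). In limma on log2(TPM + 0.1) adjusted p over GSK-343 was 0.0691 for Snap25, 0.0584 for Sv2a and 0.0653 for Dnm3. The 5 that rose over GSK-343 were 3 without either TSA library and 9 without GSK-343 replicate 1.

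Of 15 tested genes of calcium channels and their regulators, 0 rose and 4 fell with GSK-343 relative to DMSO, 2 rose and 1 fell with TSA relative to DMSO, and 3 rose and 0 fell between TSA and GSK-343. The 4 that fell stand beside 21.5% of all tested genes, and under total count scaling 1 rose and 2 fell with GSK-343, and 2 fell without GSK-343 replicate 2 or DMSO replicate 2. One of the 2 that rose with TSA, Cabp7, encodes a calcium-binding protein and not a channel, and neither call held without any 1 of the TSA or DMSO libraries. Cacna1a, the P/Q-type channel of central synapses, had 36.4 and 22.9 CPM with TSA, 0.567, 1.46 and 3.47 CPM under GSK-343, and 4.27 and 6.76 CPM in DMSO. It was higher with TSA than with GSK-343 by 3.97 ± 0.74 (adjusted p = 0.00625), a call lost in limma on log2(TPM + 0.1) (adjusted p = 0.0623).

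Of 22 other calcium buffers, sensors and pumps, 7 rose and 1 fell with each inhibitor relative to DMSO. The number that rose with TSA was 12 under total count scaling and in limma on log2 TPM, 2 without TSA replicate 1, 4 without TSA replicate 2, 2 without DMSO replicate 1 and 3 without DMSO replicate 2. S100a1 had 1238 and 1260 CPM with TSA, 3528, 7046 and 7850 CPM under GSK-343, and 645 and 456 CPM in DMSO. This calcium-binding protein gene, abundant in supporting cells, rose by 3.48 ± 0.41 with GSK-343 (adjusted p = 2.87e-05) and was lower with TSA than with GSK-343 (-2.30 ± 0.38, adjusted p = 0.00376). Its relative S100b fell with TSA, with a log2 fold change of -2.80 ± 0.58 relative to DMSO (adjusted p = 0.00360). In limma on log2(TPM + 0.5), adjusted p was 0.107 for S100a1 between TSA and GSK-343 and 0.0987 for S100b between TSA and DMSO. Cib2, a subunit of the hair cell transduction complex, rose by 2.52 ± 0.59 with TSA (adjusted p = 0.00658) and by 2.37 ± 0.56 with GSK-343 (adjusted p = 0.00424), and the TSA call was lost without DMSO replicate 1 (adjusted p = 0.0549) or TSA replicate 1 (adjusted p = 0.0562).

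Of the 2 tested vesicular transporters, Slc17a7 rose with TSA by 4.29 ± 1.52 relative to DMSO (adjusted p = 0.0451), on 15 and 21 counts against 2 and 0 in DMSO, a call lost without any 1 of these 4 libraries (adjusted p = 0.0893 to 0.362) and in the Wald test of DESeq2 (adjusted p = 0.0812). Of 3 tested ferlins, the relatives of otoferlin, 2 rose with GSK-343 and 0 with TSA. These were Dysf, by 1.86 ± 0.47 (adjusted p = 0.00618), and Fer1l6, by 3.44 ± 1.17 (adjusted p = 0.0344). With TSA, Fer1l6 differed from DMSO by a similar 3.33 (adjusted p = 0.0570), which passed in 7 of 12 other settings. Fer1l6 differed between TSA and GSK-343 by -0.11 (adjusted p = 0.970). Dysf differed between TSA and DMSO by 0.47 (adjusted p = 0.505). The Dysf call with GSK-343 was lost without DMSO replicate 1. The Fer1l6 call with GSK-343 was lost without either DMSO library or GSK-343 replicate 1 or 3, and in limma on log2(TPM + 0.5) (adjusted p = 0.107).

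The genes nearest in pattern to Otof and Calb2 were sought among 9194 protein-coding genes, by the root mean square difference of centred log2 CPM over the 7 libraries. Those nearest to Otof were Apba1 (0.401), Srrm4 (0.422), Cdh23 (0.482), Camk2b (0.556) and Mgat5b (0.565). Cdh23 encodes a tip-link cadherin of the hair bundle, and Srrm4 a splicing factor of neurons and hair cells. Those nearest to Calb2 were Tcerg1l (0.490), Clrn1 (0.576), Rims3 (0.763), Chga (0.767) and Olfm1 (0.838). Clrn1 encodes clarin, a protein of hair cells, and had 235 and 32.6 CPM with TSA, 36.8, 15.8 and 101 CPM under GSK-343, and 1.35 and 2.09 CPM in DMSO. The 7 libraries also differ in depth, and the DMSO libraries differ from the rest in the measures given above. Roles are named only for Cdh23, Srrm4 and Clrn1, which were picked among the nearest genes, so they do not describe the rest. This likeness is a description only.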

How the data were processed

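RNA from GFP-sorted supporting cells was measured in 7 libraries, made with a kit for small inputs, per the labels' protocols. STAR, RSEM and DESeq2 and the build mm10 are named in the submitters' processing notes, and versions and annotation are not given in the sources used here. The deposited tables give RSEM expected counts per gene, which share ambiguous reads between genes and are not scaled between libraries, per the file headers. The deposited TPM values are scaled for effective length and to a fixed sum per library by the authors, per the file headers. Symbols came from GENCODE M21 on GRCm38, which matched 48349 of 48709 genes.

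Expected counts were rounded and fitted in edgeR 4.0.16 (R 4.3.3) with TMM, filterByExpr and robust quasi-likelihood F tests, fitting the 7 libraries together (4 residual degrees of freedom, 14907 genes, biological coefficient of variation 0.43). Robust moderation was chosen after the fit with and without it had been seen. P-values were adjusted by Benjamini-Hochberg over all tested genes with a threshold of 0.05. The SE was taken as the size of the log2 fold change divided by the root of F. Floors are 3 counts per library, 0.674 and 0.782 CPM in DMSO.

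The members and lists were chosen with earlier results of these data known. All 10 genes are named, with up to 4 genes of each list per comparison by smallest adjusted p; examples were picked among those, and the nearest genes are the 5 of smallest difference with mean log2 CPM of at least 3. Alternatives tried were scaling by total count or by DESeq2 size factors, no filter, 50 counts in 2 libraries, 2 groups only, thinning, a replicate block, each library left out, the Wald test of DESeq2 1.42.0 and limma 3.58.1 on log2 TPM with pseudocounts of 0.5 and 0.1; nuclear protein-coding genes only and no robust moderation were added after the data were seen. Scripts were tested on simulated counts. Replicates were checked for duplicates, with a chi-square per degree of freedom of 14.7 to 43.1. Figures used Python 3.11.15 and matplotlib 3.10.9.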

Additional observations from a re-analysis of the deposited data

How the results depend on the processing

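Of 554 recomputed log2 fold changes of the 10 genes, 488 kept their direction and their side of the threshold, 26 lost the threshold, 18 gained it and 22 changed sign. The count of genes past the threshold stayed at 5 to 8 for TSA and 5 to 7 for GSK-343, relative to DMSO, in the 12 settings that left out no replicate. With a library left out it ranged over 3 to 8 for TSA and 3 to 7 for GSK-343. Leaving out a library of a pair assumes that the lone one varies like the other groups. For TSA against GSK-343 the count was 1 under total count scaling, 2 without a filter, 1 with nuclear protein-coding genes only, and 0 to 1 with a library left out.

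The percentage of all tested genes past the threshold, without a filter, was 5.73 between TSA and GSK-343, 13.4 between TSA and DMSO and 22.3 between GSK-343 and DMSO. In limma on log2 TPM it was 3.8 and 3.27 for TSA against GSK-343. With a library left out it ranged over 0.905 to 14.1, 11.1 to 34.8, and 30 to 40.8 in the same order. Total count scaling moved the median log2 fold change of all genes to 0.20, 0.65 and 0.42, and turned the split of genes that rose and fell from 1957 and 2402 into 3871 and 1307 between TSA and DMSO, from 2695 and 3208 into 3948 and 2273 between GSK-343 and DMSO, and from 752 and 846 into 1020 and 431 for TSA against GSK-343.

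The deviations of same-numbered libraries correlated by -0.0776 to 0.0402, and those of other pairs by -0.0751 to 0.0776. In a group of 2 the deviations mirror each other, so this check cannot tell whether same-numbered samples share a culture or batch. With a replicate block, 1 gene passed between TSA and GSK-343 (5.72% of all genes), 8 between TSA and DMSO and 6 between GSK-343 and DMSO.

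The sign changes were all in values that missed the threshold, and their cause was not tested. With a library left out, differences between TSA and GSK-343 ranged from -0.024 to 2.06 for Calb2, -2.21 to 0.40 for Pvalb, -1.33 to 2.01 for Otof, -1.11 to 0.49 for Ctbp2, -0.049 to 2.20 for Cacna1d and -2.12 to 1.55 for Cplx1, and TSA replicate 1 gave the lowest value of each. Those between TSA and DMSO ranged from -1.03 to 4.79 for Ocm, and those between GSK-343 and DMSO from -1.24 to 1.57 for Slc17a8 and -0.019 to 1.79 for Cacna1d. Ctbp2 between TSA and GSK-343 came to 0.20 under total count scaling and 0.047 with 50 counts in 2 libraries. Ocm between TSA and DMSO came to 0.64 under total count scaling, 0.030 without a filter, 1.70 with thinning, and 3.11 and 4.28 in limma. Slc17a8 between GSK-343 and DMSO came to 0.16 and 0.083 in limma. Ocm and Slc17a8 rest on 88 and 93 counts in all.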
